A study of Mus musculus with 6 samples.

Results

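The genes described here encode 10 chains of cytokine receptors of regulatory T cells (Tregs): Il4ra, Il6ra, Il6st, Il10ra, Il10rb, Il12rb1, Il21r, Il27ra, Tgfbr1 and Tgfbr2. They were chosen by gene symbol from the deposited value table, and all 10 were found among the 19937 genes with a row, each with 1 row. The series measured CD4+ TCRβ+ CD25+ cells by single-colour Affymetrix arrays on day 5 after total T cells of wild-type mice had been transferred. Every recipient lacked CD3ε and so had no T cells of its own. The MHC II-competent group (3 arrays) comes from recipients deficient in CD3e alone, and the MHC II-deficient group (3 arrays) from recipients deficient in both CD3e and MHC class II, the surface molecules whose bound peptides the receptors of CD4+ T cells recognise. The labels give the strain C57BL/6, an age of 6 to 8 weeks and lymph nodes and spleen as the tissue for both groups, without saying whether donors or recipients are meant, and they name no agent given to the mice. They call the replicates biological without saying how many recipients each one holds, and the p-values refer to the spread among such preparations. Arrays are numbered by replicate as competent 1, 2 and 3 and deficient 1, 2 and 3. All values are log2 values of robust multi-array averaging (RMA).

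Cytokine receptors are assembled from several chains, and some chains, such as gp130, serve more than a single cytokine. The interleukin receptors signal through JAK kinases bound to their inner parts and through STAT transcription factors, whereas the receptors for transforming growth factor beta (TGF-β) are themselves kinases that phosphorylate SMAD factors. In Tregs these inputs are known to adjust the cell's programme to its surroundings: TGF-β favours Foxp3 expression and the integrin CD103, interleukin-10 acts through STAT3 to sustain suppression, and interleukin-6, interleukin-21 and interleukin-4 can oppose the Treg programme.

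Of the 10 receptor genes, 0 passed the threshold of limma's test (adjusted p under 0.05), where 3.37% of the 15037 tested genes did. All 10 passed the filter on low values, and 2 of them, Tgfbr1 and Il4ra, had an unadjusted p under 0.05, against 18.9% of all tested genes. In MHC II-deficient arrays 7 members stood higher and 3 lower, with a median log2 difference of 0.11, beside 0.02 over all tested genes. The median size of the difference regardless of sign was 0.19 for the members and 0.13 for all tested genes. The 2 groups of arrays did not overlap for 4 of the 10 members (24.3% of all tested genes), namely Il4ra, Il6ra and Il6st, which were higher in the deficient arrays (11.4% of all tested genes), and Tgfbr1, which lay lower (12.9%). The 95% interval of the difference lay between a 2-fold decrease and a 2-fold increase for all 10 members, and between 1.5-fold bounds for 8 of them, the exceptions being Il10ra and Tgfbr1. At the standard error of each member, a log2 difference between 0.40 (Tgfbr2) and 0.76 (Il10ra) would have been needed to reach the largest unadjusted p that passed, 0.0017.

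**Figure D1:**
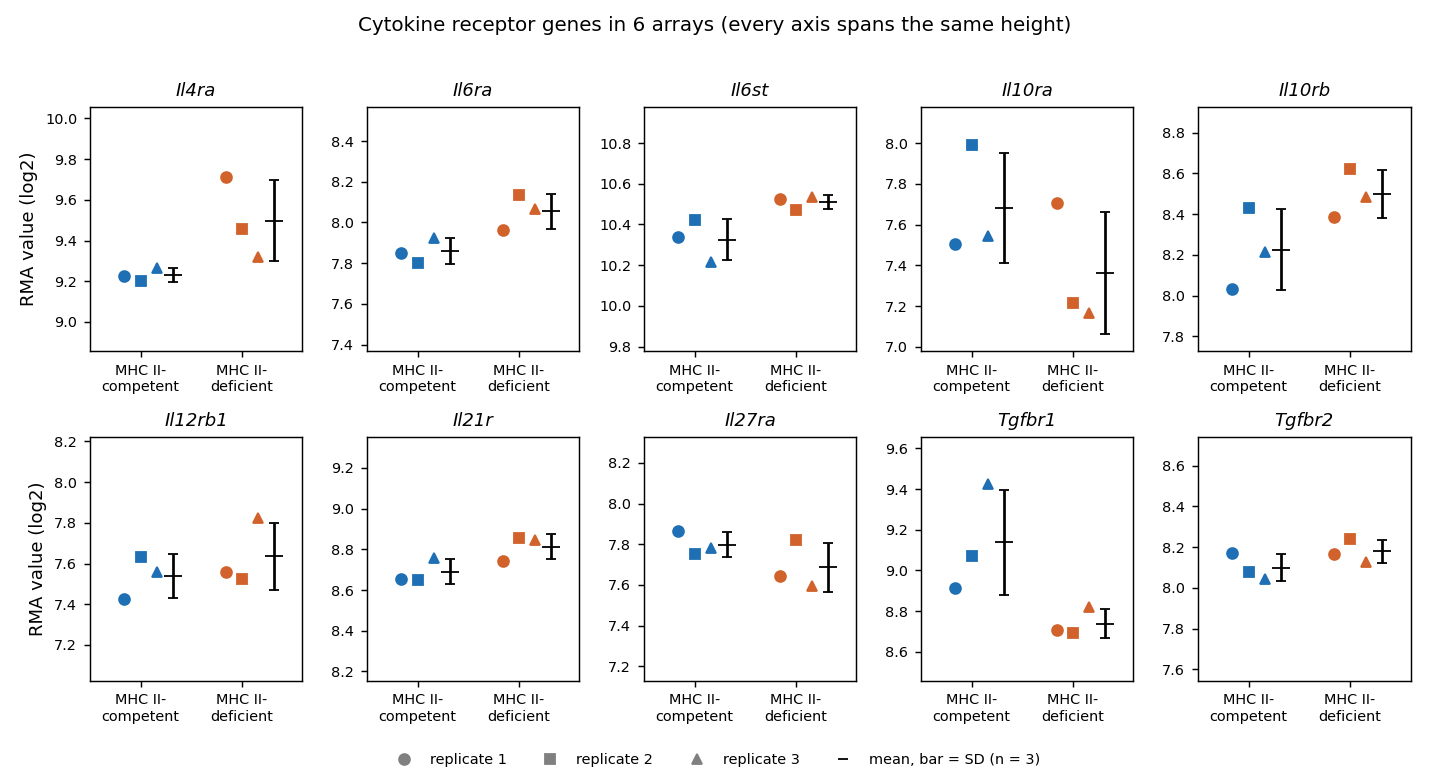
RMA values (log2) of the 10 receptor genes in the 3 MHC II-competent arrays (blue) and the 3 MHC II-deficient arrays (orange), with the marker shape giving the replicate number and black bars the mean and SD (n = 3). Every axis spans the same height, and the points of the 2 groups are apart for Il4ra, Il6ra, Il6st and Tgfbr1 and overlap for the other 6 genes.

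The sorted cells carried the markers of their label. All 10 Treg and CD4 T cell markers were tested, and 0 of them passed. All 10 nonetheless had differences below 0, with a median of -0.17, and 3 had an unadjusted p under 0.05 (18.9% of all tested genes), namely Ctla4 (-0.33), Ikzf2 (-0.29) and Il2ra (-0.27). Foxp3 lay between 9.68 and 9.88 on the 6 arrays, with a difference of -0.06 (SE 0.09, adjusted p = 0.80). H2-Ab1, an MHC class II gene, stood at 7.10, 7.79 and 6.56 in competent 1 to 3 and at 5.64, 5.89 and 5.57 in deficient 1 to 3, although the labels do not name the class II gene that the recipients lack. Of the 20 myeloid and dendritic cell markers 19 were tested, 16 of them higher and 3 lower after MHC II-deficient transfer with a median of 0.89, and 1 (Adgre1) past the threshold. In either direction, 16 of the 19 had an unadjusted p under 0.05 (18.9% of all tested genes). The groups did not overlap for 9 of the 19 (24.3% of all tested genes). The mean of the 19 was 6.63, 6.95 and 6.14 in the competent and 7.69, 7.41 and 6.91 in the deficient arrays, so that competent 2 lay above deficient 3. Xcr1 of that list, Ms4a1, Ebf1 and Cr2 of the B cell list, Ncr1 and Klrb1c of the CD8 T and NK cell list and Klf1, Pf4 and Ppbp of the erythroid and platelet list were under the filter. Of the tested markers in the B cell list (3), the CD8 T and NK cell list (5) and the erythroid and platelet list (4), 0 passed. In such sorted samples fewer cells of a type and less RNA per cell cannot be told apart.

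Il4ra encodes the chain that binds interleukin-4 and, with a partner chain, interleukin-13, and it signals mainly through STAT6. Its row (10557326) read 9.23, 9.20 and 9.26 in the competent and 9.71, 9.46 and 9.32 in the deficient arrays. The competent arrays were nearly level, every deficient array lay above them, and deficient 1 was the highest. The difference was 0.27 (SE 0.12, 95% interval 0.0084 to 0.53), a 1.20-fold higher level, with an unadjusted p of 0.044 and an adjusted p of 0.25 in limma's test. Without deficient 1 the difference was 0.16.

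The 250 bases before the start of Il4ra are shown because this member had the smallest unadjusted p among those that stood higher. RefSeq places them on the plus strand of GRCm38.p6 at chr7:125552021-125552270. Capitals mark matches to ATGNAAAT, the octamer ATGCAAAT with 1 base left free (N), searched on both strands.
Il4ra: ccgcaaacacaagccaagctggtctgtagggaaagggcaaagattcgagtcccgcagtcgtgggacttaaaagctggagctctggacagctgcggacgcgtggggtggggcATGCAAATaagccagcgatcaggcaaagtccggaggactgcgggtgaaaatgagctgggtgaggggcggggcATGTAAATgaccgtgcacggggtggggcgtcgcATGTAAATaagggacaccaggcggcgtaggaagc
The window holds 3 such matches, of which 1 is the octamer itself, and they do not overlap each other. At least 1 match to ATGNAAAT occurs in 5.03% of the 32851 RefSeq windows of the same length, and 3 or more in 12 of them. The octamer itself occurs in 1.6%. The freed base is the one at which the other matches of this window depart from the octamer, so the count of 12 is no test of how unusual the window is. The letters describe the sequence, and no binding was measured here.

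Il21r, the specific chain of the interleukin-21 receptor, which signals mainly through STAT3, is the neighbour of Il4ra in the RefSeq annotation, with 0 protein-coding genes starting between them. Its values were 8.66, 8.65 and 8.76 in the competent and 8.74, 8.86 and 8.84 in the deficient arrays. Competent 3 lay above deficient 1, so the groups overlapped. The difference was 0.12 (SE 0.09, 95% interval -0.08 to 0.33, adjusted p = 0.52), in the same direction as that of its neighbour.

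Il6ra encodes the chain that binds interleukin-6, and Il6st encodes gp130, the shared chain that carries the signal of interleukin-6, interleukin-27 and related cytokines. Il6ra read 7.85, 7.80 and 7.93 in the competent and 7.96, 8.14 and 8.06 in the deficient arrays. Il6st read 10.34, 10.42 and 10.22 in the competent and 10.52, 10.47 and 10.54 in the deficient arrays. For both genes all deficient arrays lay above all competent arrays, with gaps between the groups that were smaller than the spread within a group. The difference of Il6ra was 0.20 (SE 0.10, 95% interval -0.02 to 0.41, adjusted p = 0.31), and that of Il6st was 0.18 (SE 0.10, 95% interval -0.03 to 0.40, adjusted p = 0.34). Neither passed limma's test.

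Il27ra encodes the chain that joins gp130 to form the interleukin-27 receptor. It stood at 7.87, 7.75 and 7.78 in the competent and 7.64, 7.82 and 7.59 in the deficient arrays, where deficient 2 lay inside the competent range. The difference was -0.11 (SE 0.10, 95% interval -0.34 to 0.11, adjusted p = 0.60), so the chain specific for interleukin-27 and the shared gp130 chain had differences of opposite sign, and neither passed.

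Il12rb1 encodes the chain shared by the receptors for interleukin-12 and interleukin-23. Its values were 7.42, 7.63 and 7.56 in the competent and 7.56, 7.52 and 7.82 in the deficient arrays, and the highest of the 6 was deficient 3. The difference was 0.10 (SE 0.11, 95% interval -0.16 to 0.35, adjusted p = 0.70), and without deficient 3 it was 0.0038. The partner chains of Il12rb1 spread further: Il12rb2, which completes the interleukin-12 receptor, read 7.98, 8.09 and 7.43 in the competent and 8.74, 8.12 and 8.76 in the deficient arrays, while Il23r, which completes the interleukin-23 receptor, read 6.41, 5.99 and 5.18 in the competent and 4.86, 5.07 and 4.82 in the deficient arrays. The groups of both partners were apart, in opposite directions, as were the groups of 24.3% of all tested genes in either direction. The differences were 0.71 for Il12rb2 (SE 0.21, adjusted p = 0.11) and -0.94 for Il23r (SE 0.26, adjusted p = 0.085), and neither passed. All deficient values of Il23r, and that of competent 3, lay under the filter value of 5.205. Il23r was tested only because competent 1 and competent 2 lay above it, so its test and the size of its difference are uncertain. With 1 array left out, the difference of Il23r ran from -0.67 (without competent 1, adjusted p = 0.18) to -1.29 (without competent 3, adjusted p = 0.0047), and it passed in 1 of the 6 fits.

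The chains of the interleukin-10 receptor had differences of opposite sign. Il10ra, the chain specific for interleukin-10, read 7.51, 7.99 and 7.55 in the competent and 7.71, 7.21 and 7.17 in the deficient arrays. Il10rb, the chain shared with the receptors for interleukin-22 and type III interferons, read 8.03, 8.43 and 8.21 in the competent and 8.39, 8.62 and 8.48 in the deficient arrays. For Il10ra deficient 1 lay above competent 1 and competent 3, and for Il10rb competent 2 lay above deficient 1, so the groups overlapped for both. Il10ra had the widest SE of the 10 members, with a difference of -0.32 (SE 0.17, 95% interval -0.71 to 0.07, adjusted p = 0.37). The difference of Il10rb was 0.27 (SE 0.12, 95% interval -0.0031 to 0.55, adjusted p = 0.27), the largest upward one among the members. Whether the 2 chains differed from each other in their response was not tested. With 1 array left out the difference of Il10ra ran from -0.49 (without deficient 1) to -0.16 (without competent 2), and that of Il10rb was 0.18 without competent 1.

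Il10, the gene of the ligand, changed by more than either chain. It stood at 6.51, 7.08 and 6.62 in the competent and at 5.23, 5.39 and 5.31 in the deficient arrays, the latter close to the filter value of 5.205. Its log2 difference was -1.42 (SE 0.15, adjusted p = 0.0021), and it passed without each single array and under all 8 other alternatives that tested it.

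Tgfbr2 encodes the TGF-β receptor chain that binds the ligand first, and Tgfbr1 the kinase that it activates and that phosphorylates SMAD2 and SMAD3. Tgfbr2 was nearly level, at 8.17, 8.08 and 8.05 in the competent and 8.17, 8.24 and 8.13 in the deficient arrays. Its difference was 0.08 (SE 0.09, 95% interval -0.13 to 0.29, adjusted p = 0.70), and the groups overlapped. Tgfbr1 (row 10504817) read 8.92, 9.07 and 9.42 in the competent and 8.71, 8.69 and 8.82 in the deficient arrays. All deficient arrays lay below all competent ones, and competent 3 was the highest array by more than the gap between the groups. The difference of Tgfbr1 was -0.40 (SE 0.13, 95% interval -0.70 to -0.10), a 1.32-fold lower level, with an unadjusted p of 0.015 and an adjusted p of 0.15. It had the smallest p of the 10 members, rank 1490 of the 15037 tested genes, and its difference was -0.25 without competent 3.

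Tgfbr1 had the smallest unadjusted p among the members that stood lower, and the 250 bases before the first of its 2 RefSeq starts are shown for that reason. They lie on the plus strand of GRCm38.p6 at chr4:47352972-47353221. Capitals mark matches to the GC box GGGCGG on both strands.
Tgfbr1: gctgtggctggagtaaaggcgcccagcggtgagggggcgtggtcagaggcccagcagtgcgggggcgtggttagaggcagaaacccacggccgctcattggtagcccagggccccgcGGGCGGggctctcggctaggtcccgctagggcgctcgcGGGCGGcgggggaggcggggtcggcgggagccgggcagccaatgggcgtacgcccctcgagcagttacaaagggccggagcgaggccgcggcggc
The window holds 2 GC boxes that do not overlap, and 74.8% of its bases are G or C, against 59.6% for the Il4ra window and a median of 52.4% over all RefSeq windows. At least 1 GC box occurs in 32.7% of all RefSeq windows. The window before the other Tgfbr1 start has 52.8% G or C and 0 GC boxes. Among the other members with a window the highest share of G or C is 66.0% (Il6st). Windows were found for 6 of the 10 members (Il4ra, Il6ra, Il6st, Il21r, Tgfbr1 and Tgfbr2), 7 windows in all. Both strands were searched for the STAT motif with a 3-base spacer, TTCNNNGAA (7.02% of all windows), and the SMAD palindrome GTCTAGAC (0.167%). They had 0 matches in the 7 windows, which says only that these letters are not there. STAT motifs with other spacers were not searched.

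**Figure D2:**
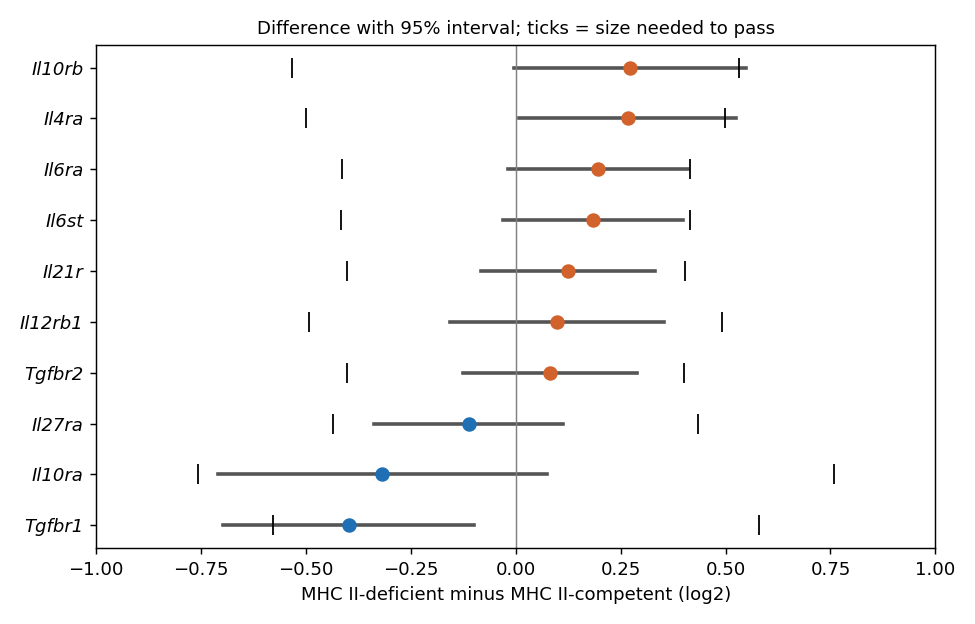
Log2 difference (MHC II-deficient minus MHC II-competent) of each member with its 95% interval from limma, orange above 0 and blue below, and black ticks at the size that member would have needed, at its SE, to pass. The interval leaves out 0 for Tgfbr1 and Il4ra, and 0 of the 10 differences reaches its tick.

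Most myeloid markers stood higher in the deficient arrays (16 of 19, with 1 past the threshold), and macrophages are known to express several of these receptors, among them Il10ra, Il10rb, Il4ra, Il6ra, Tgfbr1 and Tgfbr2. With the mean of the 19 tested myeloid and dendritic cell markers as a covariate, 0 of the 10 members passed and 0 turned sign. The difference of Il10ra was then -0.74 (SE 0.20, adjusted p = 0.16), further from 0 than without the covariate, and that of Tgfbr1 was -0.15 (SE 0.18, adjusted p = 0.73), closer to 0. Those of Il4ra (0.12), Il6st (0.10) and Tgfbr2 (0.03) were also closer to 0, those of Il6ra (0.29), Il12rb1 (0.21) and Il21r (0.22) further from it, that of Il10rb was 0.22 and that of Il27ra -0.15. This fit has 3 residual degrees of freedom, and the SE of each member was larger in it. The marker mean itself was mostly higher in the deficient arrays, so its part and that of the group cannot be fully told apart. Whether RNA of myeloid cells contributed to the differences of the members was not tested.

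**Figure D3:**
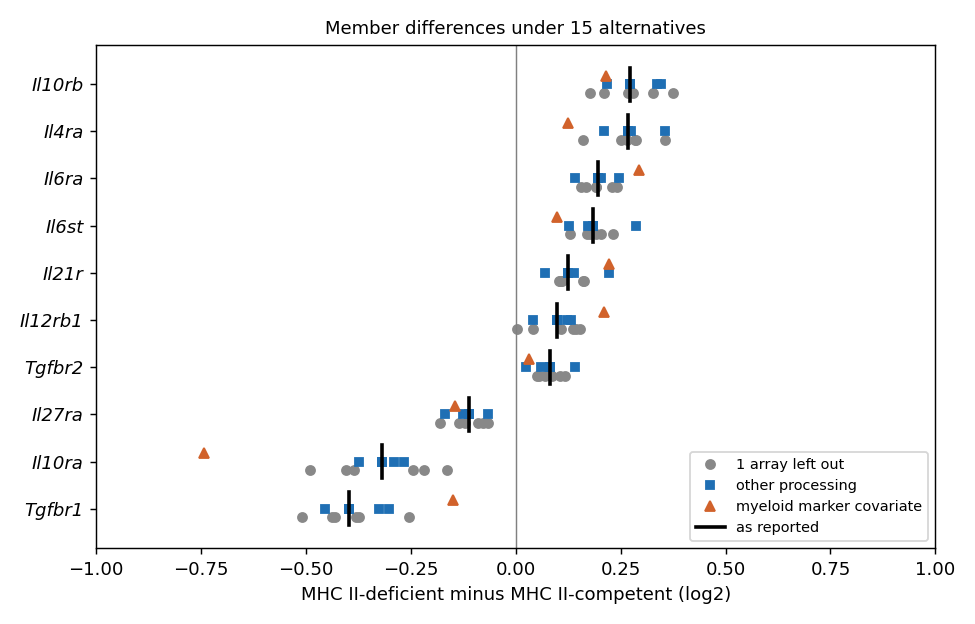
Log2 difference (MHC II-deficient minus MHC II-competent) of each member as reported (black bar), with 1 array left out (grey), under the other ways of processing (blue) and with the myeloid marker mean as a covariate (orange triangle). Each of the 150 alternative values has the sign of the reported one, and the widest ranges are those of Il10ra (-0.74 to -0.16) and Tgfbr1 (-0.51 to -0.15).

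Genes around the receptors were grouped into 7 lists, of which 69 of 83 listed genes were tested and 6 passed (8.70%, against 3.37% of all tested genes). Of these 6, 4 were in the list of STAT3, STAT6 and SMAD target genes. The lists were chosen with earlier results of these data known, so their shares beside those of all tested genes are no test of the lists. Besides Il10, the one other ligand gene of 13 tested that passed was Il12b, which encodes the p40 chain of interleukin-12 and interleukin-23. It stood at 5.34, 5.33 and 5.34 in the competent and 5.65, 5.81 and 5.75 in the deficient arrays, close to the filter value of 5.205. It rose by 0.40 (SE 0.09, adjusted p = 0.049), and that call was lost with any 1 of the 6 arrays left out (highest adjusted p 0.18) and with the myeloid covariate (0.24). Median differences were -0.03 for the ligands and 0.13 for the 7 tested partner chains. Of these chains 0 passed and 3 had an unadjusted p under 0.05 (18.9% of all tested genes). Il23r was among the 3, and its test is uncertain because all its deficient values lay under the filter value.

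Of 11 tested target genes of STAT3, STAT6 and SMAD factors, 3 fell and 1 rose past the threshold. Whatever their p, 6 stood lower and 5 higher, and their median difference was -0.25. The largest fall was that of Itgae, which encodes the αE chain of CD103, a known TGF-β target. It read 9.99, 9.99 and 9.75 in the competent and 8.39, 8.93 and 8.86 in the deficient arrays, a difference of -1.18 (SE 0.15, adjusted p = 0.0045). Tgfbi of the same list, named after its values were seen, stood higher instead (0.34, SE 0.14, adjusted p = 0.21). The gene of Blimp-1, Prdm1, a transcriptional repressor of effector cells, fell by 0.87 (SE 0.16, adjusted p = 0.023), and Maf, which encodes a transcription factor of interleukin-10 expression, fell by 0.53 (SE 0.10, adjusted p = 0.022). Tbx21, which encodes T-bet and is known chiefly as a target of interferon gamma and interleukin-12 signalling, rose by 0.51 (SE 0.09, adjusted p = 0.017), from between 6.96 and 6.99 in the competent to between 7.45 and 7.52 in the deficient arrays. With the myeloid covariate the calls of Itgae (-1.12, adjusted p = 0.091), Prdm1 (-0.98, 0.14), Maf (-0.66, 0.10) and Tbx21 (0.51, 0.17) were lost while the SE grew. With 1 array left out Itgae passed in 6 of 6 fits, Prdm1 in 3 (lost without competent 1, competent 2 or deficient 2), and Maf and Tbx21 in 1 each (without competent 3).

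**Figure D4:**
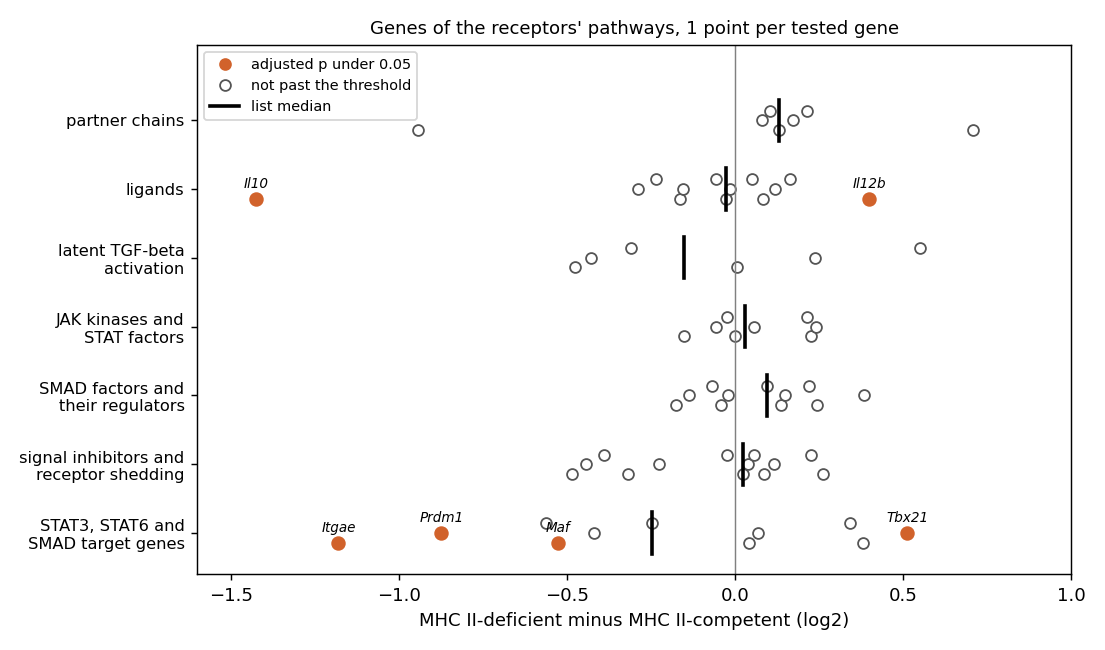
Log2 difference (MHC II-deficient minus MHC II-competent) of every tested gene of the 7 lists, 1 point per gene with small vertical offsets for legibility, filled orange where the adjusted p is under 0.05, and with the list median as a black bar. The 6 filled points are Il10, Il12b, Itgae, Prdm1, Maf and Tbx21, and the other 5 lists hold none.

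Between the receptors and these targets, 0 genes of the signalling lists passed limma's test. The share of all tested genes with an unadjusted p under 0.05 was 18.9%. Of the 8 tested JAK and STAT genes 2 were below that p, near this share, Stat6, which carries the interleukin-4 signal (0.24, SE 0.10, adjusted p = 0.23), and Stat4, which carries that of interleukin-12 (0.23, SE 0.10, adjusted p = 0.26). The list median was 0.03. Of the 11 tested SMAD factors and regulators 2 were below it, again near this share, the corepressor gene Tgif1 (0.38, SE 0.15, adjusted p = 0.20), whose difference was -0.01 with the myeloid covariate, and Smad4, the shared partner of the other SMAD factors (0.25, SE 0.11, adjusted p = 0.25). Their list median was 0.09.

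Of the 6 tested genes that activate latent TGF-β, 4 had an unadjusted p under 0.05 (18.9% of all tested genes) and 0 passed. The list split into 3 higher and 3 lower, with a median of -0.15. The smallest p belonged to Itgav, which encodes the αv integrin chain (-0.43, SE 0.11, adjusted p = 0.080), and Furin, the protease that processes the TGF-β precursor (-0.48, SE 0.15, adjusted p = 0.13). With 1 array left out both passed in 1 of 6 fits, that without competent 3 (adjusted p = 0.036 and 0.023), and in the other 5 the adjusted p reached 0.25 for Itgav and 0.33 for Furin. The largest difference of the list was upward: Lrrc32, which encodes GARP, the surface anchor of latent TGF-β, read 8.43, 8.29 and 7.69 in the competent and 8.68, 8.80 and 8.58 in the deficient arrays (0.55, SE 0.18, adjusted p = 0.14). It was named after its values were seen. Among 13 tested signal inhibitors and receptor-shedding proteases 6 had an unadjusted p under 0.05 (18.9% of all tested genes) and 0 passed, with 7 higher, 6 lower and a median of 0.02. Adam17, the protease that sheds the interleukin-6 receptor from the cell surface, read 9.34, 9.50 and 9.17 in the competent and 8.86, 8.86 and 8.96 in the deficient arrays (difference -0.44, SE 0.11, adjusted p = 0.061), and it passed in 1 of 6 fits with 1 array left out, that without competent 3 (0.031, the highest of the others being 0.20). Ptpn2, a phosphatase of JAK and STAT proteins, had a difference of -0.39 (SE 0.11, adjusted p = 0.10).

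The genes with patterns most like those of Il10rb and Tgfbr1, the members with the largest differences in each direction, were found by the root mean square distance between centred log2 values over the 6 arrays. For Il10rb they were Ankrd23 at 0.0497, Rere at 0.0593 and Mir17hg at 0.0639. For Tgfbr1 they were Zfp322a at 0.0474, Ndufs5 at 0.0516 and Mlf1 at 0.0555. None of these 6 genes passed limma's test (adjusted p from 0.10 to 0.50).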

How the data were processed

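RNA of CD25+ CD4+ T cells from 2 groups of 3 mouse samples was measured on single-colour arrays, from 100 ng of total RNA per array per the labels. The authors made the deposited log2 values with the R package affy and RMA, per the submitters' processing notes. The log base is not stated and was taken as 2, and the authors' genome build is not given in the sources used here. Rows with 1 platform symbol (21640 of 28101) were named through Entrez identifiers and the GRCm38.p6 gene table, and a gene kept its row with the highest mean. Genes with a mean under 5.205, the 25th percentile of these rows, were left out (4900), leaving 15037. limma 3.58.1 in R 4.3.3 (lmFit, eBayes, two-sided, no covariate) tested MHC II-deficient minus MHC II-competent, with Benjamini-Hochberg adjustment over all tested genes and a threshold of 0.05. The fit was tested on simulated data. Errors are limma's SE, and intervals are at 95%. The number of arrays limits the precision. Scan dates were not used, so no batch could be checked. The members and lists were chosen with earlier results of these data known. All 10 members are named, with the genes of each list that passed or else the 2 with the smallest p, and the 3 genes nearest in pattern to Il10rb and Tgfbr1. Lrrc32 and Tgfbi were named after their values were seen. Some listed genes are not reported here. Promoter windows are RefSeq's (GRCm38.p6). Alternatives changed the filter, the normalization, the prior, array weights, the row per gene, a replicate block, a myeloid covariate and the arrays used.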

Additional observations from a re-analysis of the deposited data

How the results depend on the processing

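Under all 15 alternatives 0 of the 10 receptor genes passed, no member turned sign, and the lowest adjusted p of any member was 0.10 (Il6st, quantile normalization). The genes past the threshold numbered 507 (201 higher, 306 lower), and 246 higher and 230 lower under quantile normalization or 120 and 288 under median centring. That count was 159 (without deficient 1) to 708 (without competent 3) with 1 array left out, and 59 with the myeloid covariate, whose fit has 3 residual degrees of freedom. The 6 pathway genes became 10 with array weights, 1 with the myeloid covariate, and 2 (without competent 2 or deficient 2) to 11 (without competent 3). The sign of Tgif1 turned with that covariate (-0.012). The labels do not say that replicate numbers pair arrays, and deviations of same-numbered arrays correlated at -0.02, -0.14 and 0.07. With the number as a replicate block 564 genes, 6 pathway genes and 0 members passed. In that fit Il23r, whose deficient values all lay under the filter value, passed (adjusted p = 0.023) and Il12b did not (0.089). Il12b also missed under quantile normalization (0.083) and median centring (0.079). The causes of these changes were not tested.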
